A study of Mus musculus with 6 samples.

Results

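The genes described are 31 astrocyte genes, measured in prefrontal cortex of Nrf2 knockout mice and of wild type mice. They are 21 genes listed as markers of astrocytes as a cell type, called identity genes here, and 10 genes that astrocytes are known to raise after injury or inflammation, called reactive genes. Nes, listed among the identity genes, is also made by neural progenitors and by some reactive astrocytes. A probe belonged to a gene when the array file gave the gene's symbol or one of its RefSeq transcripts. By that rule 83 of the 150305 probes that are not controls belonged to the 31 genes, 53 from Agilent's catalogue and 30 of custom design, out of 17560 coding genes with a tested probe. The samples were 3 from mice with a knockout of the Nrf2 gene and 3 from wild type mice, all males of the outbred ICR stock aged 3 to 4 months, with no treatment named. Which part of the gene was deleted, how, and whether a sample is 1 animal or a pool are not in the labels, so p-values measure only how these samples spread, and that spread may be technical. RNA was labelled with 1 dye and hybridised to 1 array per sample, carrying probes for coding, long non-coding and circular RNAs.

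Astrocytes take up glutamate and potassium released by neurons, exchange water and ions with blood vessels through their end feet, are joined to each other by gap junctions, and make lipoproteins. Reactive astrocytes enlarge their intermediate filaments and secrete protease inhibitors, acute phase proteins and cytokine-responsive factors. NRF2, the protein of the gene Nfe2l2, is a transcription factor that switches on antioxidant and detoxification genes through a DNA element called the antioxidant response element, and in brain its pathway is known to be more active in astrocytes than in neurons.

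Values are normalised log2 signals: log2 of the scanner's processed signal minus log2 of the 75th percentile of that array, so that 0 is the 75th percentile. That percentile was 269, 248 and 245 in knockouts 1, 2 and 3, against 279, 280.3 and 278 in wild types 1, 2 and 3. Nfe2l2 itself had −3.74, −3.79 and −3.46 in knockouts 1, 2 and 3, against 0.49, 0.39 and 0.35 in wild types 1, 2 and 3 (log2 fold change −4.08, limma adjusted p = 0.000613), with no overlap, as its labels state. By the slide numbers of the deposited files, knockout 1 and all wild type arrays were on slide 1 and knockouts 2 and 3 on slide 2. Across all probes the first principal component, 52.2% of the variance, placed knockout 1 nearer to the wild type arrays than to the other knockouts, and the second component set wild type 1 apart from the rest. For this reason many fold changes are followed by their value with slide as a block, which rests on knockout 1 against the wild type arrays, and without wild type 1 where that matters. Each of the 31 genes had at least 1 tested probe, that is 1 that the scanner software called well above background on all 3 arrays of a genotype, and 79 of the 83 probes were tested. All 21 identity genes were well above background in all 6 samples at their brightest probe, so astrocyte RNA was present in each. At that probe only Steap4 was tested through 1 genotype alone, since 3 knockout but only 2 wild type arrays had it above background.

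None of the 31 genes passed the threshold of an adjusted p of 0.05 in limma's test across all tested probes, in which 10 probes passed (0.00944%), or 3 of the 17560 coding genes at their brightest probe (0.0171%). At an unadjusted p under 0.05, 1 identity gene (Nes) and 3 reactive genes (Cp, Lgals3 and Timp1) measured lower in the knockout, against 9.46% of all coding genes, and 1 identity gene (Kcnj10) measured higher, against 2.93%. The 10 reactive genes lay mostly below their wild type level: 8 of 10 had a log2 fold change under 0, with a median of −0.24, while the share under 0 over all coding genes was 51.3% and their median −0.0051. The 21 identity genes divided, with 8 under 0 and 13 over 0 (48.7% of all coding genes lay over 0) and a median of 0.057. With slide as a block the reactive median was −0.36, again with 8 of 10 under 0, and the identity median was −0.028, with 15 of 21 under 0. In that same fit all coding genes had a median of −0.060, with 11570 of 17560 under 0. All knockout values lay below all wild type values for 4 identity genes (Gjb6, Nes, Id3 and Slc1a2) and 3 reactive genes (Cp, Lgals3 and Timp1), against 12.9% of all coding genes. The opposite arrangement, every knockout above every wild type, occurred for 0 of the 31 genes at the brightest probe, against 6.47% of all coding genes. In bulk tissue, fewer cells of a type and less RNA per cell cannot be told apart.

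The single arrays did not contribute evenly. Knockout 1 had the lowest of the 6 values for 8 of the 21 identity genes and 4 of the 10 reactive genes. Knockout 2, on the other slide, had the highest value for 8 identity genes and the lowest for 0. The median deviation of the identity genes from their wild type means was −0.028 in knockout 1, 0.081 in knockout 2 and 0.090 in knockout 3, with opposite signs on the 2 slides. Over all coding genes it was −0.060, 0.041 and 0.0088 in knockouts 1, 2 and 3, with the same signs. For the reactive genes it was −0.36, −0.16 and −0.13 in knockouts 1, 2 and 3, below 0 in each. The wild type arrays lay at 0.031, −0.022 and −0.0072 for the identity genes and at 0.059, 0.032 and −0.076 for the reactive genes. The SD over replicates had a median of 0.083 in the knockouts and 0.10 in wild type for identity genes, and of 0.18 in the knockouts and 0.17 in wild type for reactive genes.

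**Figure D1:**
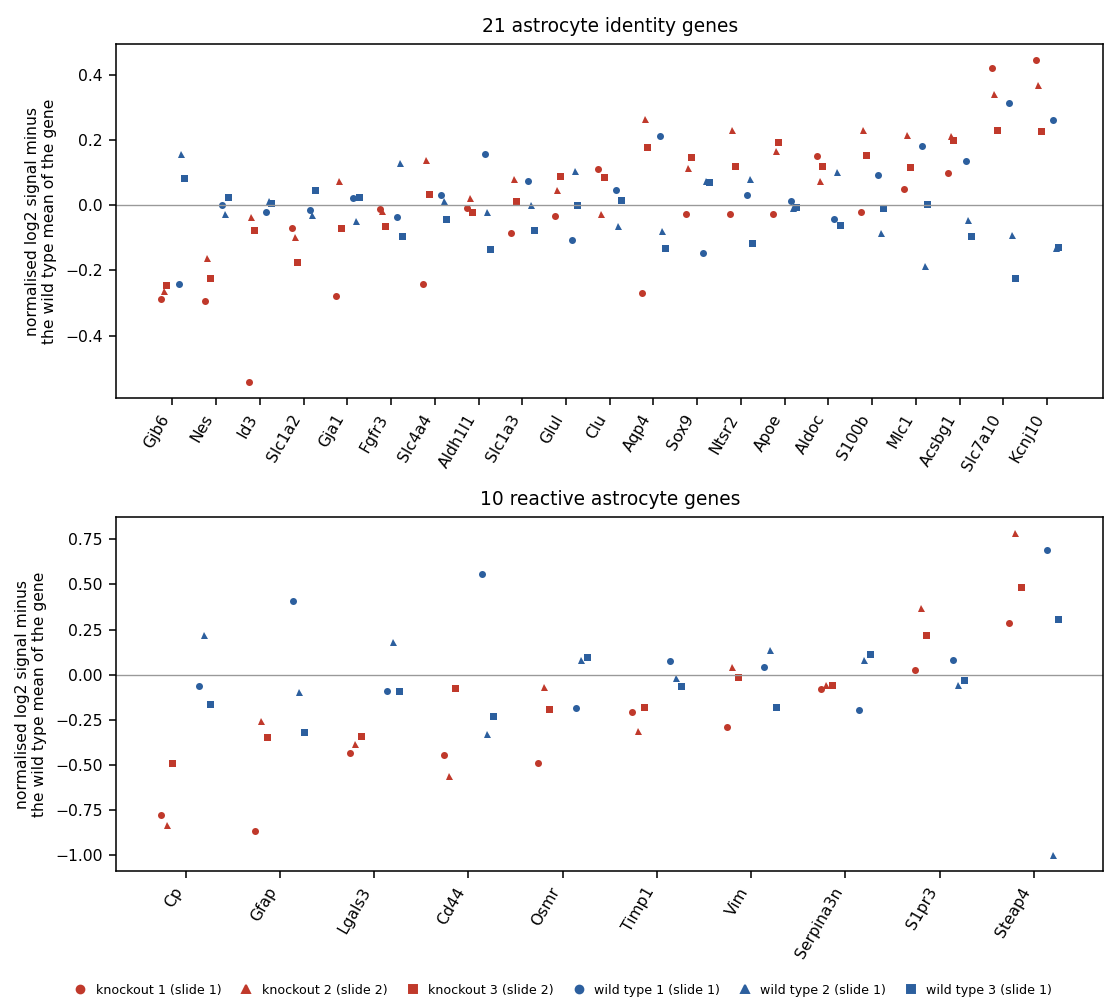
Normalised log2 signal of each gene minus its wild type mean, at the brightest tested probe, in 3 knockout (red) and 3 wild type (blue) samples; each point is 1 array, and circles in red are the knockout that shared slide 1 with wild type. Cp, Lgals3 and Timp1 show all red points below all blue points, while Gfap shows 1 wild type sample far above the others.

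The filament genes come first among the reactive genes. Gfap (chr11:102887336-102897200, GRCm38, minus strand), which encodes the glial fibrillary acidic protein that defines reactive astrocytes, had 2.37, 2.98 and 2.89 in knockouts 1, 2 and 3, against 3.64, 3.14 and 2.92 in wild types 1, 2 and 3. Knockout 1 was the lowest, wild type 1 the highest, and the groups overlapped by the narrow margin between knockout 2 and wild type 3. Its log2 fold change −0.49 ± 0.24 (SE) had a 95% interval −1.06 to 0.084 and a limma adjusted p = 0.362; it was −0.87 with slide as a block and −0.28 without wild type 1. The other 2 probes of Gfap measured −0.46 and −0.45, so all 3 probes of Gfap lay within a narrow range of fold change. Vim, the filament vimentin, had 3.37, 3.70 and 3.65 in knockouts 1, 2 and 3, against 3.70, 3.79 and 3.48 in wild types 1, 2 and 3, overlapping groups with knockout 1 alone below the wild type range. Its log2 fold change −0.087 ± 0.13 (SE) was smaller than its spread (limma adjusted p = 0.745) and was −0.29 with slide as a block.

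Of the secreted proteins and metal-handling enzymes, Cp and Timp1 measured lower in every knockout sample. Cp (chr3:19956933-20009750) encodes ceruloplasmin, a copper-carrying ferroxidase that astrocytes use to release iron. It had 0.18, 0.12 and 0.46 in knockouts 1, 2 and 3, against 0.89, 1.17 and 0.79 in wild types 1, 2 and 3, with no overlap between groups. This was the largest absolute difference among the 31 genes, a log2 fold change −0.70 ± 0.15 (SE) (95% interval −1.05 to −0.35), with a limma adjusted p = 0.307. It was −0.78 with slide as a block and −0.73 without wild type 1; the adjusted p came closest to the threshold without knockout 1, at 0.0592. The other 2 probes of Cp gave −0.38 and −0.36 with overlapping groups, since wild type 1 was low on both.

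Timp1 (chrX:20870166-20874737), an inhibitor of metalloproteinases that reactive astrocytes secrete, had 0.45, 0.35 and 0.48 in knockouts 1, 2 and 3, against 0.73, 0.64 and 0.60 in wild types 1, 2 and 3. All knockout samples lay below all wild type samples (log2 fold change −0.23 ± 0.089 (SE), 95% interval −0.45 to −0.018, limma adjusted p = 0.321), also with slide as a block (−0.21) and without wild type 1 (−0.19). On its 2 dimmer probes the groups did not overlap either: the second probe had −3.32, −3.66 and −3.56 in the knockouts, against −2.22, −2.62 and −3.29 in wild type (log2 fold change −0.80, limma adjusted p = 0.31), and the dimmest gave −0.73. On both of these, wild type 3 lay close to the knockout samples. Serpina3n, a secreted protease inhibitor and one of the most used reactive markers, had 5.52, 5.55 and 5.55 in knockouts 1, 2 and 3, against 5.41, 5.68 and 5.72 in wild types 1, 2 and 3. The knockouts fell inside the wild type range (log2 fold change −0.063 ± 0.11 (SE), limma adjusted p = 0.774), and its second probe was on the other side of 0, at 0.10. Steap4, a metalloreductase induced in inflammation, was near background, with −4.44, −3.94 and −4.24 in knockouts 1, 2 and 3, against −4.04, −5.73 and −4.42 in wild types 1, 2 and 3, of which wild type 2 was not well above background. Its log2 fold change of 0.52 ± 0.42 (SE) had the widest interval, −0.50 to 1.54 (limma adjusted p = 0.532).

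The last group of reactive genes holds a lectin and 3 receptors. Lgals3 (chr14:47373860-47386167) encodes galectin-3, a sugar-binding protein made by reactive astrocytes and also by activated microglia and macrophages. It had −1.54, −1.50 and −1.45 in knockouts 1, 2 and 3, against −1.20, −0.93 and −1.20 in wild types 1, 2 and 3. The knockouts lay close together and below every wild type sample (log2 fold change −0.38 ± 0.11 (SE), 95% interval −0.64 to −0.13, limma adjusted p = 0.307; −0.43 with slide as a block). Its second probe also separated the groups, with −3.88, −4.27 and −4.14 in the knockouts, against −3.61, −3.56 and −3.48 in wild type (log2 fold change −0.54, limma adjusted p = 0.307). That probe passed without knockout 1 (limma adjusted p = 0.0129), a fit in which 12.8% of all tested probes passed and in which genotype and slide cannot be told apart.

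Cd44, the receptor for hyaluronan, had −1.60, −1.71 and −1.22 in knockouts 1, 2 and 3, against −0.59, −1.48 and −1.38 in wild types 1, 2 and 3. Wild type 1 stood far above the rest, the groups overlapped, and the log2 fold change of −0.36 ± 0.26 (SE) became −0.081 without that sample (limma adjusted p = 0.488 with all samples). The second tested probe of Cd44 gave −0.094, with overlap, −0.026 with slide as a block and 0.069 without wild type 1. Osmr, the oncostatin M receptor that signals through STAT3, had −0.39, 0.030 and −0.090 in knockouts 1, 2 and 3, against −0.084, 0.18 and 0.20 in wild types 1, 2 and 3, with knockout 1 lowest and an overlap at wild type 1 (log2 fold change −0.25 ± 0.14 (SE), limma adjusted p = 0.411). Its second probe gave a near-equal value, −0.25, and with slide as a block the 2 probes gave −0.49 and −0.40. S1pr3, a receptor for sphingosine-1-phosphate, ran the other way, with 0.24, 0.58 and 0.44 in knockouts 1, 2 and 3, against 0.30, 0.16 and 0.19 in wild types 1, 2 and 3. Knockouts 2 and 3 exceeded all wild type samples and knockout 1 did not (log2 fold change 0.20 ± 0.12 (SE), limma adjusted p = 0.401; 0.024 with slide as a block). On its dimmest probe all knockouts lay above all wild types, with −3.78, −3.72 and −3.89 in the knockouts, against −4.01, −4.64 and −4.42 in wild type (log2 fold change 0.56, limma adjusted p = 0.307), and on its middle probe the value was 0.035.

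**Figure D2:**
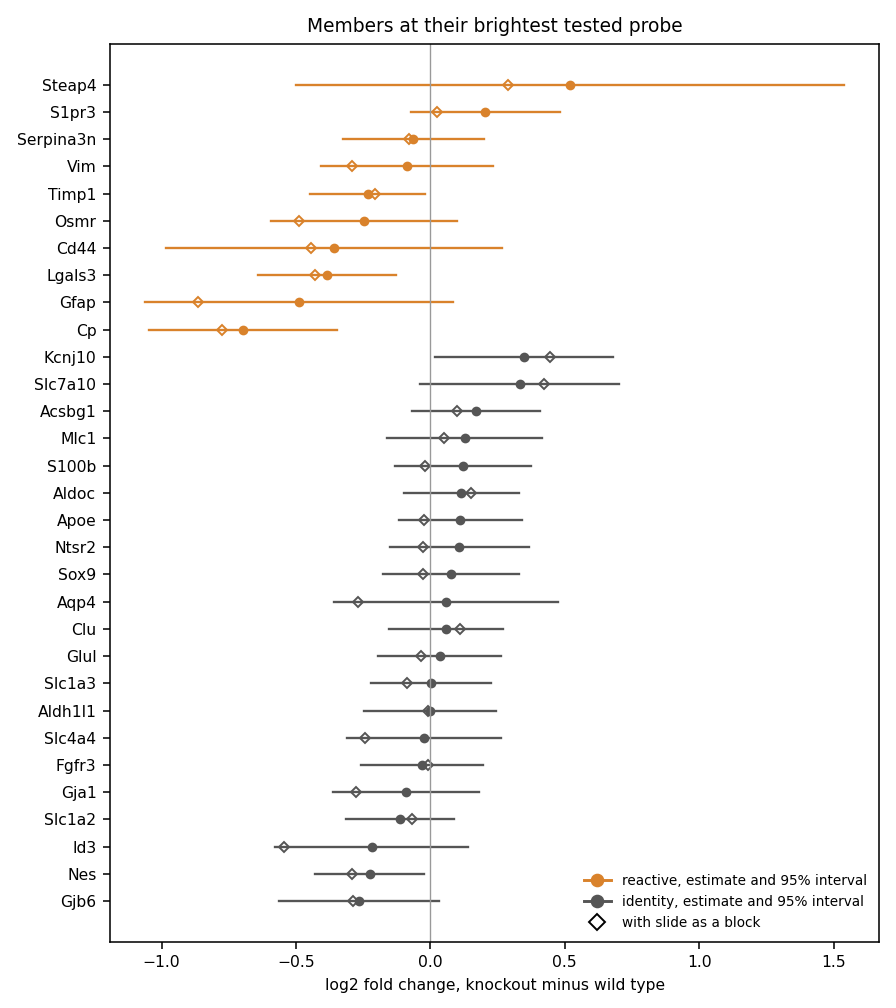
Log2 fold change, knockout minus wild type, of the 31 genes at the brightest tested probe, with limma's 95% interval (filled points and lines) and with slide as a block (open diamonds). The intervals of Cp, Lgals3, Timp1 and Nes lie below 0 and that of Kcnj10 above 0 before adjustment over all probes. The diamonds of Aqp4, Slc1a3, S100b, Sox9, Glul, Apoe and Ntsr2 lie on the other side of 0 from their points.

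Among the identity genes, those for channels, transporters and gap junctions divided. Kcnj10 (chr1:172341210-172374085) encodes Kir4.1, the potassium channel with which astrocytes clear potassium. It had 6.17, 6.09 and 5.95 in knockouts 1, 2 and 3, against 5.98, 5.59 and 5.59 in wild types 1, 2 and 3. The groups overlapped by 1 sample, wild type 1, which lay above knockout 3 (log2 fold change 0.35 ± 0.14 (SE), 95% interval 0.016 to 0.68, limma adjusted p = 0.326; 0.45 with slide as a block and 0.48 without wild type 1). On its second probe all knockouts were above all wild types, with 5.58, 5.47 and 5.36 in the knockouts, against 5.34, 4.98 and 5.0 in wild type (log2 fold change 0.36, limma adjusted p = 0.315). Slc7a10, which encodes the small neutral amino acid transporter Asc-1, showed the same arrangement of samples: 3.83, 3.75 and 3.64 in knockouts 1, 2 and 3, against 3.73, 3.32 and 3.19 in wild types 1, 2 and 3 (log2 fold change 0.33 ± 0.15 (SE), limma adjusted p = 0.352). Its second probe also put all knockouts above all wild types, at 0.56 and, with slide as a block, 0.66.

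Gjb6, the gap junction protein connexin 30, had 4.84, 4.86 and 4.88 in knockouts 1, 2 and 3, against 4.89, 5.29 and 5.21 in wild types 1, 2 and 3. The knockouts lay below every wild type sample, but wild type 1 was only just above them (log2 fold change −0.27 ± 0.12 (SE), limma adjusted p = 0.353; −0.29 with slide as a block). Its other 2 probes gave −0.17 and 0.092, on both sides of 0. Gja1, connexin 43, measured −0.091 with overlapping groups, and Mlc1, a membrane protein of perivascular end feet, had 6.01, 6.18 and 6.08 in knockouts 1, 2 and 3, against 6.15, 5.78 and 5.97 in wild types 1, 2 and 3 (log2 fold change 0.13 ± 0.12 (SE), limma adjusted p = 0.587), also overlapping. Aqp4, the water channel of the end feet, gave 0.058 ± 0.17 (SE) on its brightest probe and 0.031 to 0.12 over its 4 probes. With slide as a block all 4 turned negative, −0.27 to −0.12, since knockout 1 was the lowest or near the lowest sample on each.

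The genes of glutamate handling and metabolism differed little at their brightest probes. Glul, glutamine synthetase, measured 0.034 (95% interval −0.20 to 0.26), Slc1a3, the glutamate transporter GLAST, 0.0026 (95% interval −0.22 to 0.23), and Aldh1l1, a folate enzyme widely used to mark astrocytes, −0.0014 (95% interval −0.25 to 0.25). Those intervals do not show that the levels were equal, and they bound the difference only at the brightest probe of each gene. The second probe of Aldh1l1 gave 0.25 (95% interval −0.026 to 0.52) with overlapping groups. The other probes of Glul gave −0.088 and 0.11, and that of Slc1a3 −0.040. Acsbg1, an acyl-CoA synthetase, had 4.36, 4.48 and 4.46 in knockouts 1, 2 and 3, against 4.40, 4.22 and 4.17 in wild types 1, 2 and 3 (log2 fold change 0.17 ± 0.099 (SE), limma adjusted p = 0.413). Aldoc, the brain form of aldolase, had 7.51, 7.43 and 7.48 in knockouts 1, 2 and 3, against 7.31, 7.46 and 7.30 in wild types 1, 2 and 3 (log2 fold change 0.11 ± 0.089 (SE), limma adjusted p = 0.515). In both genes the groups overlapped, with the knockouts in the upper part of the wild type range or above it. Clu, the secreted chaperone clusterin, gave 0.057 with overlap on its brightest probe and 0.17, with all knockouts above all wild types, on its other.

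Of the genes for signalling and cell state, Nes and Id3 measured lower in all knockouts. Nes (chr3:87971093-87980451, plus strand) encodes nestin, an intermediate filament of neural progenitors that some reactive astrocytes also make. It had 1.45, 1.58 and 1.52 in knockouts 1, 2 and 3, against 1.74, 1.72 and 1.77 in wild types 1, 2 and 3. The groups did not overlap (log2 fold change −0.23 ± 0.084 (SE), 95% interval −0.43 to −0.024, limma adjusted p = 0.319; −0.29 with slide as a block), and its second probe separated them too, at −0.25. Id3, an inhibitor of basic helix-loop-helix transcription factors, had 3.38, 3.89 and 3.84 in knockouts 1, 2 and 3, against 3.90, 3.93 and 3.93 in wild types 1, 2 and 3. Knockout 1 was far below the other samples, while knockout 2 lay just under wild type 1, so that the value, −0.22 ± 0.15 (SE; limma adjusted p = 0.468), was −0.056 without knockout 1 and −0.54 with slide as a block; the second probe, also without overlap, gave −0.16. S100b, a calcium-binding protein, had 5.69, 5.94 and 5.86 in knockouts 1, 2 and 3, against 5.80, 5.62 and 5.70 in wild types 1, 2 and 3 with overlap (log2 fold change 0.12 ± 0.10 (SE), limma adjusted p = 0.552). The receptors Ntsr2 and Fgfr3 and the transcription factor Sox9 measured 0.11, −0.031 and 0.077, all with overlapping groups.

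Probes of one gene did not always agree in sign, and in 11 of the 30 genes with more than 1 tested probe they lay on both sides of 0. Slc1a2 (chr2:102658239-102790784, plus strand) encodes GLT-1, the main glutamate transporter of cortex. Its brightest probe had 7.41, 7.38 and 7.30 in knockouts 1, 2 and 3, against 7.46, 7.45 and 7.52 in wild types 1, 2 and 3 (log2 fold change −0.11 ± 0.083 (SE), limma adjusted p = 0.492), the knockouts being below every wild type sample. Its probes 2 and 3, by brightness, had the opposite arrangement, with 7.44, 7.48 and 7.53 in the knockouts, against 6.75, 7.31 and 7.37 in wild type on probe 2 and 5.23, 5.33 and 5.27 in the knockouts, against 5.05, 5.03 and 5.08 in wild type on probe 3. Their log2 fold changes were 0.34 (limma adjusted p = 0.372) and 0.23 (limma adjusted p = 0.314). The 2 dimmest gave 0.050 and 0.37, and on probes 2 and 5 wild type 1 was far below the others, so that without it they gave 0.15 and 0.071. The 5 probes of Slc1a2 messenger RNA had no single direction, and the brightest alone lay below 0.

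Apoe, which encodes the main lipoprotein of astrocytes, had 7.64, 7.83 and 7.86 in knockouts 1, 2 and 3, against 7.68, 7.65 and 7.66 in wild types 1, 2 and 3 on its brightest probe (log2 fold change 0.11 ± 0.095 (SE), limma adjusted p = 0.546). Its custom probe had 7.40, 6.68 and 6.68 in knockouts 1, 2 and 3, against 7.35, 7.37 and 7.36 in wild types 1, 2 and 3. There knockouts 2 and 3 were low and knockout 1 was level with wild type, giving −0.44 ± 0.20 (SE; limma adjusted p = 0.352) over all samples, 0.041 with slide as a block and, without knockout 1, −0.68 with a limma adjusted p of 0.00678. Slc4a4 (chr5:88793858-89239656, plus strand) encodes a sodium bicarbonate cotransporter that sets pH, and its brightest probe had 3.79, 4.17 and 4.07 in the knockouts, against 4.07, 4.05 and 3.99 in wild type (log2 fold change −0.024 ± 0.12 (SE), limma adjusted p = 0.928). Its dimmest probe, at chr5:89668602-89668661 of build mm9, had −0.75, −5.74 and −5.34 in knockouts 1, 2 and 3, against −0.38, −0.69 and −1.22 in wild types 1, 2 and 3. Knockouts 2 and 3 were not well above background there while knockout 1 was inside the wild type range, so the fitted difference over all samples, −3.18 ± 1.27 (SE; limma adjusted p = 0.327), rests on 2 signals near background and is no measured size. It was 0.014 with slide as a block. Without knockout 1, 4 of the 79 probes passed the threshold (the Slc4a4 probe at a limma adjusted p of 0.00155, the Apoe and Lgals3 probes above, and the dimmest probe of Ntsr2 at 0.0445), but 0 of the 31 at the brightest probe, where 8.95% of coding genes passed.

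**Figure D3:**
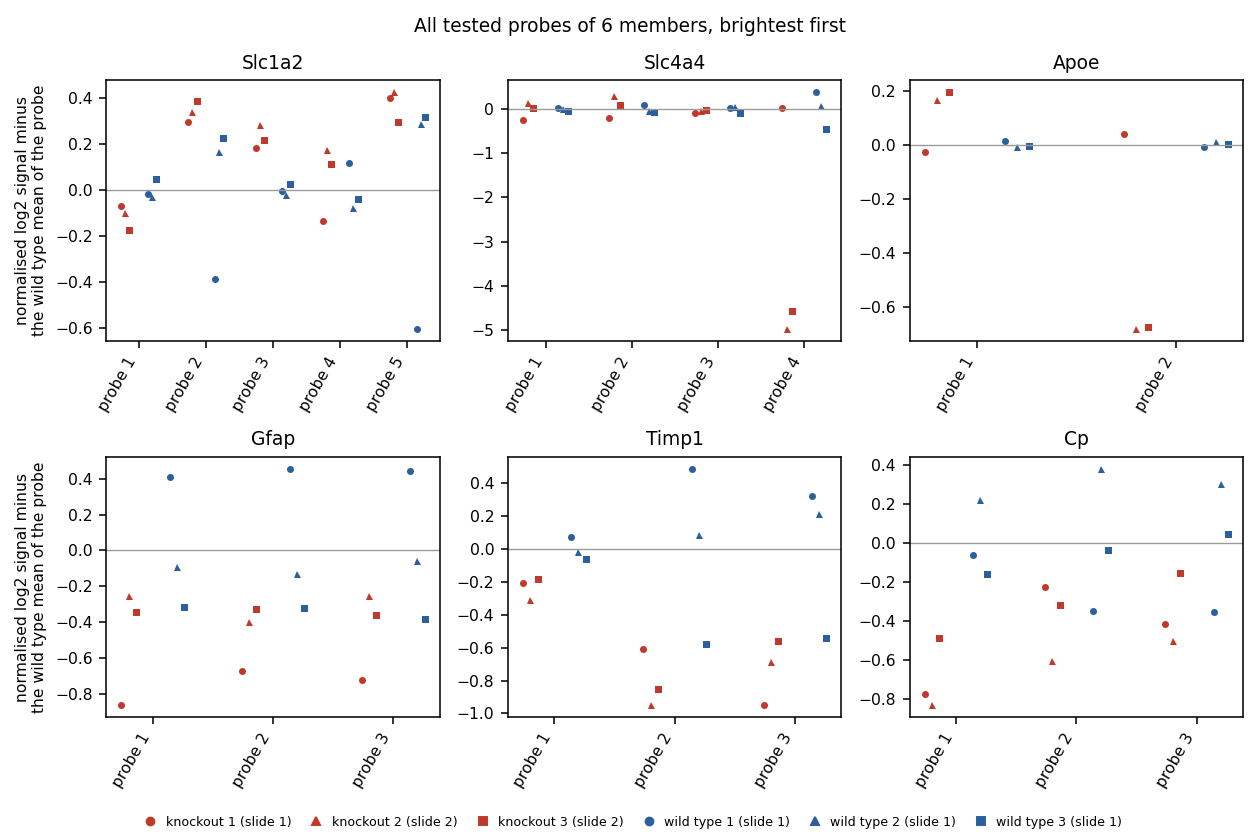
Normalised log2 signal minus the wild type mean of the probe, for every tested probe of 6 genes in order of brightness, in 3 knockout (red) and 3 wild type (blue) samples; each point is 1 array. Knockouts 2 and 3 on slide 2 lie far below the other samples on probe 2 of Apoe and probe 4 of Slc4a4, and the probes of Gfap show 1 pattern.

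The array also held probes for circular RNAs, closed loops made when a downstream splice site is joined back to an upstream one. These are a further readout of the same genes, by other probes. Whether linear RNA of the genes adds to the signals was not tested. On the genes' own strand 69 such probes lay inside 15 of the 31 genes, and 52 were tested. None passed the threshold (limma; 0.00289% of all tested circular RNA probes did), and their log2 fold changes had 26 below and 26 above 0 with a median of −0.0027, against 0.082 and 35.8% below 0 over all tested circular RNAs. At an unadjusted p under 0.05, 7 measured lower, against 6.15% of all tested circular RNAs, and 6 measured higher, against 8.69%. For 8 of the 52 all knockouts lay below all wild types, against 6.82%, and for 8 all lay above, against 16.5%. Positions come from the probe names and are read as GRCm38.

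All 6 circular RNAs of Slc1a2 lay above 0, at 0.079 to 0.34, and in 4 of them every knockout exceeded every wild type; over all tested circular RNAs 64.2% lay above 0. The probes of 4 of them are shown because their circular RNAs all start at position 102735944 and they end in the same 12 bases, in capitals, the longest run they share.
Slc1a2 chr2:102735944-102748595 (+): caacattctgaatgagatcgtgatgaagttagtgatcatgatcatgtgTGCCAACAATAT
Slc1a2 chr2:102735944-102767067 (+): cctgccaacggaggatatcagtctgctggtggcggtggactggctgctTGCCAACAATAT
Slc1a2 chr2:102735944-102777655 (+): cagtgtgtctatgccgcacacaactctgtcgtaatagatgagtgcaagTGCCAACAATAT
Slc1a2 chr2:102735944-102781584 (+): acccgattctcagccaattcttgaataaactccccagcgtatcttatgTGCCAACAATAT
The second of these had 4.32, 4.53 and 4.54 in knockouts 1, 2 and 3, against 4.14, 4.12 and 4.12 in wild types 1, 2 and 3 (log2 fold change 0.34 ± 0.095 (SE), limma adjusted p = 0.307; 0.20 with slide as a block). Knockout 1 lay below knockouts 2 and 3 but above all wild type samples. In the order printed, the log2 fold changes were 0.079, 0.34, 0.22 and 0.15, and the groups overlapped on the first alone. The remaining pair, which start at 102755907, gave 0.28 without overlap and 0.24 with overlap. The direction of these circular RNAs was that of probes 2 to 5 for the messenger RNA of Slc1a2 and the opposite of its brightest.

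Slc4a4 gave rise to 10 tested circular RNAs, of which 7 lay below 0. The 3 that end at position 89156602 share a run of 10 bases, in capitals, and are shown because the same 2 samples were low on all of them.
Slc4a4 chr5:89057949-89156602 (+): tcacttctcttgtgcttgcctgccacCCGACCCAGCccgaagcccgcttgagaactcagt
Slc4a4 chr5:89081301-89156602 (+): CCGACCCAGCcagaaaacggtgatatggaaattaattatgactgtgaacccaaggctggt
Slc4a4 chr5:89122402-89156602 (+): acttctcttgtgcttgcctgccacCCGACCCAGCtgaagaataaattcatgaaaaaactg
The first had 5.61, 5.14 and 5.12 in knockouts 1, 2 and 3, against 5.55, 5.51 and 5.73 in wild types 1, 2 and 3 (log2 fold change −0.31 ± 0.16 (SE), limma adjusted p = 0.375). The second had −1.63, −3.66 and −3.44 in knockouts 1, 2 and 3, against −1.46, −1.91 and −1.51 in wild types 1, 2 and 3 (−1.28 ± 0.52 (SE), limma adjusted p = 0.329). The last of these had 1.58, 1.08 and 1.06 in knockouts 1, 2 and 3, against 1.74, 1.75 and 1.71 in wild types 1, 2 and 3 (−0.49 ± 0.16 (SE), limma adjusted p = 0.307). In each, knockouts 2 and 3 of slide 2 were low and knockout 1 lay within or close to the wild type range, and with slide as a block the 3 gave 0.014, −0.0033 and −0.15. The first circular RNA of Slc4a4 printed above starts at position 89057949, as do 3 others. The probes of those 3 share a run of 21 bases, in capitals, which that first probe also holds.
Slc4a4 chr5:89057949-89084718 (+): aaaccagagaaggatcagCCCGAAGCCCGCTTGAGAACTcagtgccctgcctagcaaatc
Slc4a4 chr5:89057949-89122559 (+): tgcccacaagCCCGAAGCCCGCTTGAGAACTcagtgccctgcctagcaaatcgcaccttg
Slc4a4 chr5:89057949-89179844 (+): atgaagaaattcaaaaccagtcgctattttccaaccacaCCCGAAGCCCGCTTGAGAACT
Their log2 fold changes were 0.078, −0.16 and 0.14 in the order printed, with slide-block values of −0.020, −0.069 and 0.028. On the second, knockouts 2 and 3 were again the lowest samples, with −0.32, −0.42 and −0.51 in the knockouts, against −0.22, −0.26 and −0.28 in wild type and no overlap. On the first and the third the groups overlapped. Another circular RNA that was low in the slide 2 knockouts, chr5:89038451-89046392, had −3.23, −4.85 and −5.08 in knockouts 1, 2 and 3, against −2.85, −3.11 and −3.23 in wild types 1, 2 and 3 (−1.33 ± 0.47 (SE), limma adjusted p = 0.314; −0.17 with slide as a block), and 2 of the 3 knockout arrays had it well above background, so its size is uncertain.

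A circular RNA of Gfap was well above background in wild type samples only. Its probe for chr11:102893035-102894539 (minus strand) is printed for that reason.
Gfap chr11:102893035-102894539 (−): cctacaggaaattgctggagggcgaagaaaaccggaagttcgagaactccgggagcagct
It had −5.74, −5.14 and −5.82 in knockouts 1, 2 and 3, against −3.92, −4.51 and −3.73 in wild types 1, 2 and 3, and all knockouts lay below all wild types. No knockout array had it well above background while all 3 wild type arrays did, so it was tested through wild type alone and the knockout level is uncertain. The measured means were −5.57 ± 0.37 in the knockouts and −4.05 ± 0.41 in wild type (SD, n = 3 each). The knockouts were at least 2.09-fold lower (limma adjusted p = 0.307). That fold sets the wild type mean against a floor per knockout array: the dimmest probe called well above background, or this probe where it was brighter. Some probes brighter than such a floor were not called well above background, so the fold is no lower limit. The other circular RNA of Gfap, chr11:102889435-102893586, had −3.59, −2.92 and −3.01 in the knockouts, against −2.37, −3.01 and −3.01 in wild type, overlapping, with wild type 1 high as in the messenger RNA (−0.38 ± 0.25 (SE), limma adjusted p = 0.453).

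The only circular RNA of Cp, chr3:19983393-19989218, had −2.49, −2.67 and −2.16 in knockouts 1, 2 and 3, against −1.93, −1.48 and −2.01 in wild types 1, 2 and 3, with no overlap (−0.63 ± 0.19 (SE), limma adjusted p = 0.307; −0.68 with slide as a block). That was close to the brightest Cp messenger RNA probe, at −0.70, and further below 0 than the other 2, at −0.38 and −0.36. For Cd44 the circular RNA chr2:102831330-102842377 was above wild type in every knockout, with −3.68, −3.48 and −3.17 in the knockouts, against −4.02, −3.91 and −3.93 in wild type (0.51 ± 0.14 (SE), limma adjusted p = 0.307), while 4 of the 6 tested circular RNAs of Cd44 lay below 0. The 10 circular RNAs of Vim ranged from −0.28 to 0.20, all with overlapping groups, and all 10 were below 0 with slide as a block. Without knockout 1, 11 of the 52 passed the threshold (4 of Slc4a4, 3 of Cd44 and 1 each of Aldoc, Gfap, Osmr and Slc1a2), 6 lower and 5 higher, where 14.5% of all tested circular RNA probes passed. In that fit both knockout arrays are on slide 2 and all wild type arrays on slide 1, so genotype and slide cannot be told apart.

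**Figure D4:**
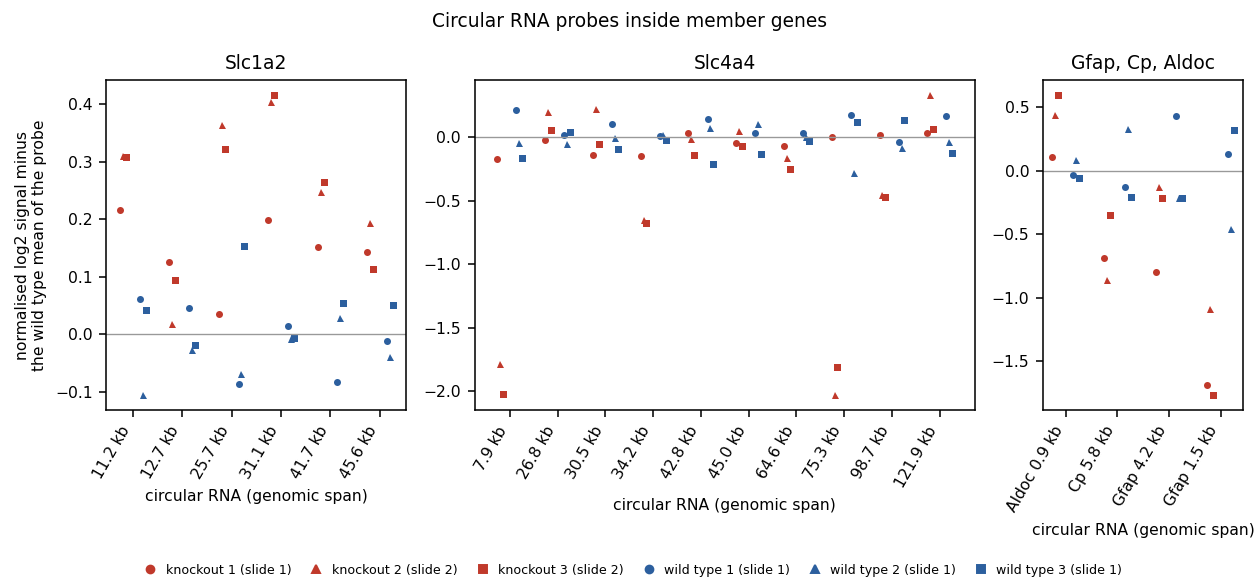
Normalised log2 signal of circular RNA probes minus the wild type mean of the probe, by genomic span, for Slc1a2, Slc4a4 and for Aldoc, Cp and Gfap, in 3 knockout (red) and 3 wild type (blue) samples; each point is 1 array. In Slc1a2 the red points lie above 0 on all 6 probes, and in Slc4a4 the red triangles and squares (slide 2) lie far below 0 on 4 probes while the red circles stay near the wild type points.

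Wider lists of astrocyte genes were read beside the 31. Of 48 further genes known for expression in astrocytes, all were tested and none passed the threshold (limma): 37 lay above 0 and 11 below, with a median of 0.095, and 0.046 with slide as a block (19 below 0). In 10 of the 48 every knockout exceeded every wild type, against 6.47% of coding genes. In 2 every knockout was below, against 12.9%. At an unadjusted p under 0.05, 7 measured higher, against 2.93%, and 0 lower, against 9.46%. The largest of the 10 was Mt3, a zinc-binding metallothionein of brain, with 4.49, 4.56 and 4.73 in knockouts 1, 2 and 3, against 4.19, 3.95 and 3.97 in wild types 1, 2 and 3 (log2 fold change 0.56 ± 0.11 (SE), limma adjusted p = 0.307; 0.45 with slide as a block). Entpd2, an enzyme that splits extracellular ATP, gave 0.46. Slco1c1, a thyroid hormone transporter, gave 0.43, and Slc6a11, the GABA transporter GAT-3, 0.26. Those 4 had limma adjusted p-values of 0.307 to 0.319. Without knockout 1 Mt3 and Entpd2 passed, in the fit in which 8.95% of coding genes passed and genotype and slide cannot be told apart.

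Of 34 further genes raised in reactive astrocytes, 29 were tested and none passed (limma). The direction was that of the reactive genes above: 27 of 29 lay below 0 with a median of −0.32 (−0.33 with slide as a block, 29 of 29 below 0). Like the other lists, this one was chosen with earlier results of these data known. In 14 of the 29 every knockout was below every wild type, against 12.9% of coding genes, and 11 had an unadjusted p under 0.05, against 9.46%. Cxcl10, an interferon-induced chemokine, had −3.97, −4.85 and −4.30 in knockouts 1, 2 and 3, against −0.76, −1.30 and −3.18 in wild types 1, 2 and 3 (log2 fold change −2.63 ± 0.62 (SE), limma adjusted p = 0.307). Wild type 3 lay far below the other wild types but above all knockouts. C4b, a complement component, had 1.58, 1.51 and 1.66 in knockouts 1, 2 and 3, against 2.21, 2.84 and 2.37 in wild types 1, 2 and 3 (−0.89 ± 0.17 (SE), limma adjusted p = 0.307), with tight knockouts below all wild types. Cd109, a membrane protein that binds TGF-beta, gave −1.17, and Ccl2, a chemokine for monocytes, −0.77. Only 2 of the 3 knockout arrays had Cd109 well above background, so the size of its difference is uncertain. It was −0.52 with slide as a block. Without knockout 1, C4b, Cd109 and Ccl2 passed (limma adjusted p = 0.048, 0.0496 and 0.0436), again in the fit in which 8.95% of coding genes passed. Many of these genes are also made by microglia, macrophages, endothelium and fibroblasts.

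Markers of macrophages and meninges measured lower beside the reactive genes. Macrophage and blood leukocyte markers lay below 0 for 7 of 7 (median −0.63, and −0.87 to −0.55 with 1 array left out, when 5 to 7 lay below 0). Their linear signals, in units of the array's 75th percentile, summed to 7.73 to 19.6 in the knockouts and 11.8 to 31.1 in wild type. Markers of fibroblasts and meninges lay below 0 for 8 of 8 (median −0.40), with sums of 26.1 to 32.7 in the knockouts and 32.5 to 48.6 in wild type. Their median was −0.17 without wild type 1 and −0.25 without knockout 1, with 7 of 8 below 0 in both, and −0.64 with slide as a block. Microglial markers lay below 0 for 10 of 10, by less, with a median of −0.045 (7 to 10 of 10 below 0 and a median of −0.10 to −0.021 with 1 array left out). Their sums were 166 to 185 in the knockouts and 172 to 191 in wild type. Medians of neuronal, oligodendrocyte, precursor, endothelial and mural markers were 0.036, 0.020, 0.015, −0.015 and 0.0090. The last 4 of these took both signs when 1 array was left out. Choroid plexus and ependymal markers had a median of −0.095, with no stable direction (−0.20 without wild type 1 and 0.16 without knockout 1), and markers of white matter or subventricular astrocytes and progenitors 0.051. None of these markers was below background in every array of a genotype. The sums of the 10 reactive genes were 66.6 to 73.2 in the knockouts and 74.8 to 81.0 in wild type, without overlap. Those of the 21 identity genes were 1228 to 1292 in the knockouts and 1208 to 1236 in wild type, with overlap. A linear sum is weighted to the brightest genes. Among the reactive genes these were Serpina3n, Vim and Gfap, and the groups of each overlapped. The part of macrophage, meningeal or other cells in the reactive values was not tested.

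**Figure D5:**
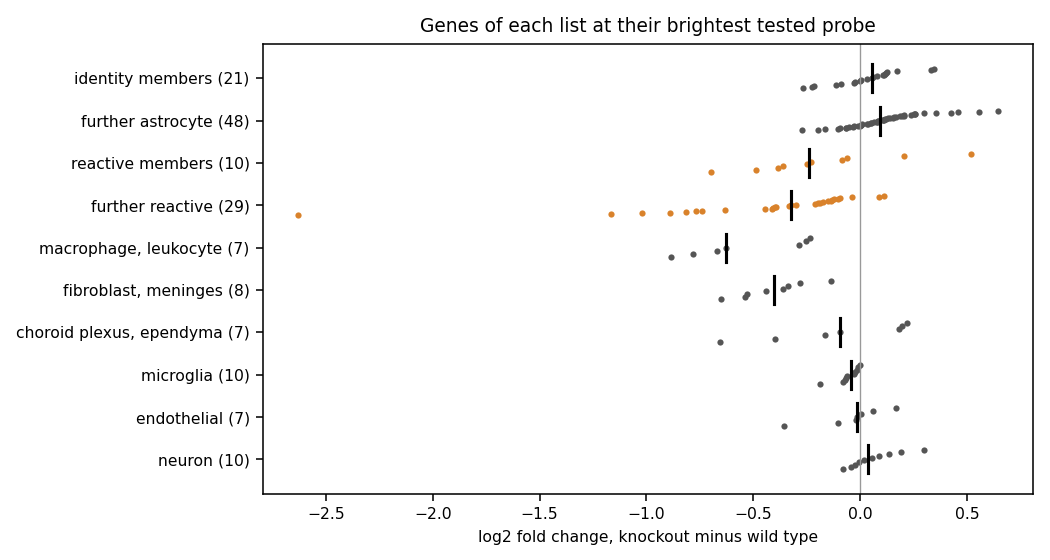
Log2 fold change, knockout minus wild type, of each gene (points) at its brightest tested probe and the median of each list (black bars); the number of tested genes stands in brackets. Reactive lists (orange) and the macrophage, leukocyte and meningeal markers lie mostly below 0, while identity genes and further astrocyte genes lie on both sides of it.

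The promoters of the genes were searched for the cores of 2 elements that bear on the comparison: TGACNNNGC, the core of the antioxidant response element that NRF2 binds, and TTCNNNGAA, a site form bound by STAT3. Both strands were read, in windows from 250 bases before to 50 after the transcription start, from RefSeq on GRCm38.p6; 28 of the 31 genes had a window. The antioxidant core occurred in 2 of 18 identity genes (Fgfr3 and Nes) and 0 of 10 reactive genes, and in 14% of all genes with a window. The STAT form occurred in 4 of 18 identity genes (Acsbg1, Aldoc, Ntsr2 and Slc1a3) and 2 of 10 reactive genes (Gfap and Steap4), and in 9.55% of all genes with a window. The windows of Nes and Fgfr3 are printed as those with the antioxidant core and that of Gfap as the filament gene with the STAT form, from 250 bases before to 20 after the start, with the match in capitals.
Nes chr3:87970843-87971112 (+): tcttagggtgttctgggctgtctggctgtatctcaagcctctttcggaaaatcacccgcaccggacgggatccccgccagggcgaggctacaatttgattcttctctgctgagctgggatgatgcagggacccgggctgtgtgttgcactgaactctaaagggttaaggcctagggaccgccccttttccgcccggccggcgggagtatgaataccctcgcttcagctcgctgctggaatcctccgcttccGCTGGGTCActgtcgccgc
Fgfr3 chr5:33721474-33721743 (+): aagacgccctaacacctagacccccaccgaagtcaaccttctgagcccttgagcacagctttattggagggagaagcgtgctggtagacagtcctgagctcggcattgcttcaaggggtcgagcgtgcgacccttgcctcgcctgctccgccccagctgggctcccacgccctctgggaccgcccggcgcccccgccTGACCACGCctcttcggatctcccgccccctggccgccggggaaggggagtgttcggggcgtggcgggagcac
Gfap chr11:102897181-102897450 (−): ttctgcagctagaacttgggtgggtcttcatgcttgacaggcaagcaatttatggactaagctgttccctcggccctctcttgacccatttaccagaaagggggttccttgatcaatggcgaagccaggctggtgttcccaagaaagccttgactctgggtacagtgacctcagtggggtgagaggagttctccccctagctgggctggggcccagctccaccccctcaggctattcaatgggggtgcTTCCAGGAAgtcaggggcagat
The match lay at bases 2 to 10 from the start of Nes on the other strand, −53 to −45 in Fgfr3 and −2 to 7 in Gfap. Nes measured −0.23 and Fgfr3 −0.031 at their brightest probes. The other probe of Nes gave −0.25 and those of Fgfr3 0.082, 0.26 and −0.092, on both sides of 0. A match is a description of these letters, not a bound site, and windows without a match say nothing of binding elsewhere.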

How the data were processed

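The deposited scanner files of the 6 arrays hold intensity values made by the authors, per the file headers with version 12.0.3.1 of Agilent Feature Extraction (10.7 in the submitters' processing notes, which also name limma); the processed signal is background-subtracted and detrended, with surrogates for low values. The authors' deposited value table is on a log2 scale, normalised between arrays by steps that no label or header states, and served as an alternative. Slides were read from the slide numbers of the deposited files.

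From the processed signal, log2 minus the array's 75th percentile was taken. The 4974 control spots were left out and flagged outlier spots set to missing, and saturation was seen on 0 probes. Of 150305 probes, 105924 were well above background on all 3 arrays of a genotype and were tested two-sided over all 6 arrays by lmFit and eBayes of limma 3.58.1 (R 4.3.3), as knockout minus wild type, with Benjamini-Hochberg adjustment over all of them and a threshold of 0.05. The steps were tested on simulated data. A gene was read at its brightest tested probe. The number of arrays, 3 per genotype, limits the precision. Symbols were matched for 48048 of 48467 RefSeq probes through a GRCm38.p6 table, and each circular RNA was assigned by the coordinates in its name, read as GRCm38, in whose gene spans they lie, since no source states their build. Catalogue probe positions are on mm9 per the file headers, and which exon or untranslated region a probe lies in was not analysed here.

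Genes with values in every sample were the reactive genes, and the identity genes past the threshold, among the 10 with the largest absolute change or with the highest or lowest signal. Slc4a4 was given too, outside that rule and with the values of its probes known. From the wider lists and the circular RNAs, those past the threshold were to be named, or else the 4 largest changes without overlap between groups, and further circular RNAs of Slc1a2, Slc4a4, Gfap and Vim were chosen after their values were seen. The 31 genes and all lists were chosen with earlier results of these data known. Replicate numbers are shared by both genotypes, but same-numbered samples did not deviate together (r = −0.013, −0.050 and 0.038), so they were not treated as pairs. Alternatives covered background correction, normalisation, the filter on dim probes, slide, replicates left out and the probe used.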

Additional observations from a re-analysis of the deposited data

How the results depend on the processing

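No gene of the 31 passed the threshold at its brightest probe under any alternative run (lowest limma adjusted p 0.0592, for Cp without knockout 1). Over all tested probes 10 passed; 4 did among probes above background on all 6 arrays, 4 on slide 1 alone, 22 with an intensity trend in the variance, and 5 to 13558 with 1 array left out (13558 without knockout 1, 50 without wild type 1). With a replicate block 2 passed, and Nfe2l2 kept its log2 fold change of −4.08 at a limma adjusted p of 0.0519; the block changed no call among the 31 genes.

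The direction of the reactive genes as a group was kept under every alternative run, with a median of −0.36 with slide as a block or on slide 1 alone and −0.27 to −0.18 with 1 array left out; 1 reactive gene lay above 0 when only probes above background on all 6 arrays were used, since Steap4 was then not tested. The identity genes had no stable direction. Their median was 0.11 with the array median, when 5 lay below 0. It was −0.028 with slide as a block or on slide 1 alone, when 15 lay below and 6 above 0. All coding genes then had a median of −0.060, with 11570 of 17560 below 0. With 1 array left out the identity median was 0.0077 to 0.086, with 5 to 10 below 0. Circular RNAs of the 31 genes had a median of −0.11 with slide as a block or on slide 1 alone, with 16 above 0, and 0 to 11 passed with 1 array left out. For the further astrocyte genes the median was 0.15 with the array median, when 7 lay below 0, against 19 with slide as a block or slide 1 alone and 10 to 17 with 1 array left out, when 0 to 2 passed. For the further reactive genes it was −0.23 with normexp and quantile normalisation and −0.42 to −0.25 with 1 array left out, when 0 to 3 passed; 0 lay above 0 with slide as a block or on slide 1 alone.

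Single genes close to 0 changed sign. With slide as a block and on slide 1 alone these were Aqp4 (−0.27), Slc1a3 (−0.085), S100b (−0.020), Sox9 (−0.028), Glul (−0.035), Apoe (−0.025) and Ntsr2 (−0.028). With the array median they were Aldh1l1 (0.050), Fgfr3 (0.020) and Slc4a4 (0.028); with normexp, quantile normalisation and the authors' table only Aldh1l1 did (0.024, 0.0048 and 0.00027). With the mean of all tested probes of a gene they were Aldh1l1 (0.12), Slc1a2 (0.18), Slc1a3 (−0.019), S100b (−0.0042), Apoe (−0.16), Fgfr3 (0.055) and Serpina3n (0.019). With 1 array left out the ranges that crossed 0 were Aldh1l1 −0.069 to 0.077, Aqp4 −0.046 to 0.22, Fgfr3 −0.079 to 0.034, Gja1 −0.17 to 0.0019, Glul −0.019 to 0.087, Slc1a3 −0.037 to 0.046, Slc4a4 −0.10 to 0.086 and Vim −0.18 to 0.015. The cause was not tested. With 3 arrays a genotype and knockouts 2 and 3 alone on slide 2, the values with slide as a block rest on 1 knockout array, and dim genes such as Steap4, near background, carry the widest error.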
